A study of Mus musculus with 7 samples.

Results

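The genes described here encode 6 subunits of the pumps that move sodium and calcium out of the cytosol: the sodium pump subunits Atp1b1, Atp1b2 and Atp1a4, the plasma membrane calcium pumps Atp2b1 and Atp2b4, and the endoplasmic reticulum calcium pump Atp2a3. They were chosen by name, and all 6 were among the 5017 genes measured. All probe sets whose platform annotation gave 1 of these symbols and no other were taken, which were 101 of the 53644 probe sets with 1 gene symbol. A probe set is a group of array probes that read a stretch of a gene, often 1 exon.

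The series measured messenger RNA on 7 Affymetrix arrays of dissected mouse retinal pigment epithelium (RPE), the pigmented cell sheet behind the photoreceptors, at postnatal day 5. The 3 Dicer1-deficient samples are labelled Dicer1loxP/loxP;Dct-Cre: both alleles of Dicer1 are floxed, and Cre is driven by Dct, a gene of pigment cells, so that melanocytes may carry the deletion as well as RPE cells. The 4 control samples are labelled control RPE without a genotype. Both groups came from matings of Dicer1 flox/+ Dct cre with Dicer1 flox/flox mice, so controls may carry floxed alleles or Cre. Dicer1 encodes the endonuclease that makes mature microRNAs, and the series asks what its loss does to the RNA of the RPE. The labels do not tie the arrays to separate animals. The p-values therefore describe variation among these 7 arrays, some of which may be technical, and so few arrays give limited precision.

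The sodium pump couples the splitting of ATP to the export of sodium and the import of potassium. Its catalytic alpha subunit carries the ions, and its glycosylated beta subunit is needed to bring the alpha subunit to the membrane and also binds neighbouring cells. In the RPE the sodium pump sits on the apical membrane, facing the photoreceptors, where it feeds the ion and fluid transport of the epithelium. Plasma membrane calcium pumps remove calcium from the cell, and the pumps of the SERCA family return it to the endoplasmic reticulum.

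All values below are signals on the log2 scale, whose overall median was 6.22. Pairs of arrays correlated at 0.980 to 0.984 within the Dicer1-deficient samples and at 0.986 to 0.988 within controls 1 to 3. Control 4 stood apart: its correlations were 0.942 to 0.951, and its own median signal was 6.05 where the rest had 6.22 to 6.26. Results are therefore given with and without control 4 where it matters. The targeted gene was nearly level at its brightest probe set: Dicer1 read 10.53, 10.71 and 10.47 in the Dicer1-deficient arrays against 10.27, 10.65, 10.69 and 10.88 in the controls, and which part of it is floxed is not stated. The samples held signal of other tissues, such as the collagen gene Col3a1 at 13.19 ± 0.07 (SD, n = 3) in Dicer1-deficient and 13.18 ± 0.07 (SD, n = 4) in control arrays. Fewer cells of a type and less RNA per cell cannot be told apart in such samples.

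Atp1b1, on chromosome 1, was higher in Dicer1-deficient RPE at every probe set measured. This gene encodes the beta 1 subunit, the common partner of the alpha subunit in epithelia. Its brightest probe set, 10359694, read 11.67, 11.71 and 11.66 in the Dicer1-deficient arrays, against 11.14, 11.12, 11.20 and 10.78 in the controls. The Dicer1-deficient arrays lay within 0.05 of each other and above all controls, and control 4 was the lowest. The means were 11.68 ± 0.02 (SD, n = 3) in Dicer1-deficient and 11.06 ± 0.19 (SD, n = 4) in control arrays. The log2 difference was 0.62 (SE 0.12, 95% interval 0.34 to 0.91), a 1.54-fold higher signal, and it passed limma's test with a Benjamini-Hochberg adjusted p of 0.0470 over all genes. Of all genes, 2.33% passed this test, 1.42% in the higher direction.

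That call at a single probe set was close to the threshold. Leaving out any 1 Dicer1-deficient array, or control 1, 2 or 3, left the difference at 0.61 to 0.67 while limma's adjusted p became 0.0845 to 0.173, and without control 4 the difference was 0.53 (adjusted p = 0.0107, where 5.18% of all genes passed, 3.17% as higher). The mean of its 7 probe sets was steadier. It read 10.42, 10.48 and 10.48 in the Dicer1-deficient arrays, against 9.85, 9.84, 9.84 and 9.65 in the controls, with a log2 difference of 0.66 (SE 0.08, limma adjusted p = 0.0016). The groups were again apart, as they were for 18.9% of all genes on this mean. On it 5.86% of all genes passed, 3.03% as higher, and Atp1b1 passed with each of the 7 arrays left out in turn (adjusted p from 2.4e-04 to 0.0154).

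**Figure D1:**
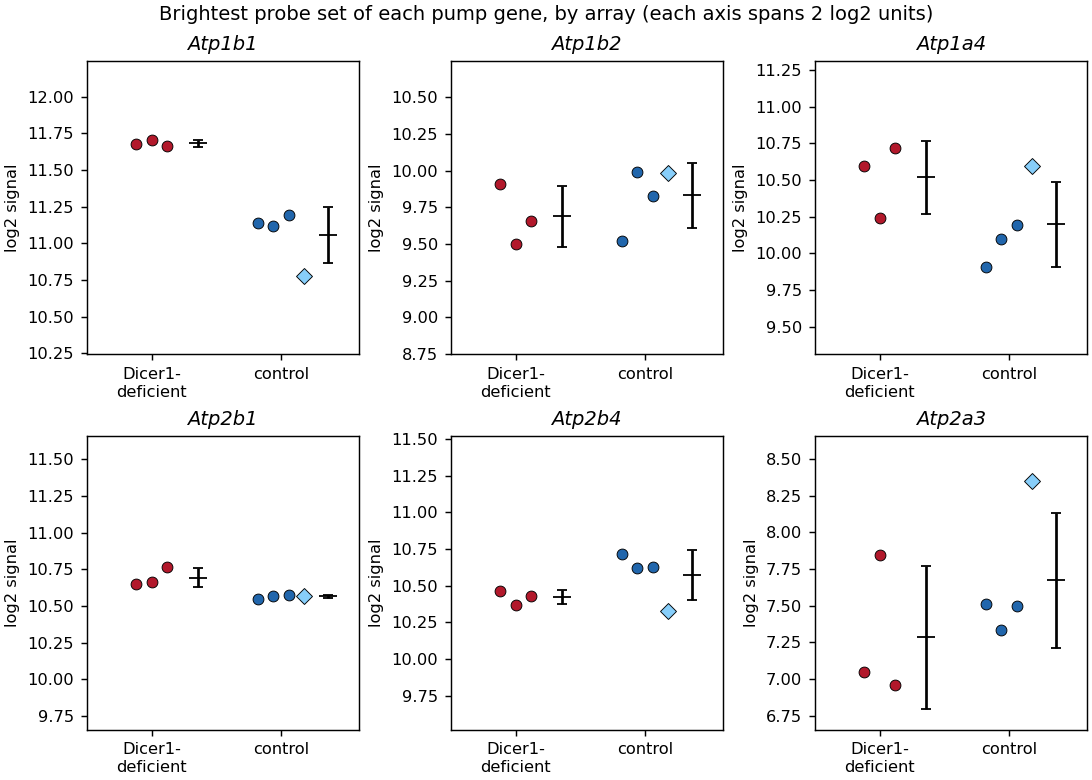
Log2 signal of the brightest probe set of each of the 6 pump genes in the 3 Dicer1-deficient arrays (red, left) and the 4 control arrays (blue, right, with control 4 as a light diamond). Bars beside the points show the mean and SD, and each vertical axis spans 2 log2 units. Atp1b1 and Atp2b1 are the genes whose groups do not overlap, with Atp1b1 at 11.66 to 11.71 in Dicer1-deficient and 10.78 to 11.20 in control arrays.

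Along the Atp1b1 probe sets, taken in the order of their ID numbers because their positions in the gene were not given, the differences were alike at the 6 bright probe sets and smaller at the dim seventh. All 7 had Dicer1-deficient arrays above every control, where 7.35% of all probe sets did. The log2 differences of the 6 probe sets above the median signal ran from 0.62 to 0.84. At 10359692 the Dicer1-deficient arrays read 10.61, 10.58 and 10.69, against 9.83, 9.81, 9.92 and 9.87 in the controls, with control 4 inside the range of the others. Its difference of 0.77 (SE 0.11) was the only one of the 7 to pass limma over all 53644 probe sets (adjusted p = 0.0230), where 1.06% passed, 0.656% as higher. The other 5 bright probe sets had adjusted p of 0.0510 to 0.103.

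Control 4 set much of the spread at the other probe sets. At 10359695 the Dicer1-deficient arrays read 11.50, 11.58 and 11.63, against 10.87, 10.79, 10.92 and 10.33 in the controls, and at 10359693 they read 10.88, 10.99 and 10.97, against 10.27, 10.21, 10.32 and 9.66. In both, control 4 is the low value. At 10359690 it was instead the high control: 11.53, 11.55 and 11.44 in Dicer1-deficient arrays, against 10.74, 10.86, 10.75 and 11.07. Without control 4 all 6 bright probe sets passed (limma adjusted p from 0.0167 to 0.0442), where 2.3% of all probe sets did and 1.19% as higher, with differences of 0.53 to 0.77. The seventh, 10359696, was dim, with 5.50, 5.60 and 5.62 in Dicer1-deficient arrays and 5.36, 5.41, 5.06 and 5.34 in controls. No detection call exists for it, and its difference of 0.28 did not pass (adjusted p = 0.470).

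**Figure D2:**
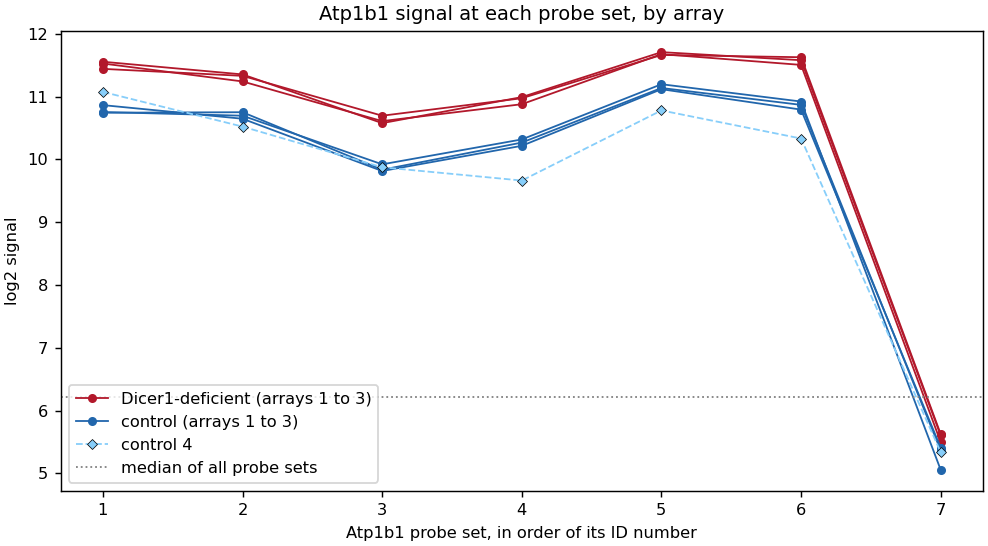
Log2 signal at each of the 7 Atp1b1 probe sets, numbered by ID, with a line for each array: Dicer1-deficient in red, controls 1 to 3 in blue, and control 4 as a dashed light blue line with diamonds. The red lines lie above all blue ones at every probe set, from 0.28 between the means at the dim seventh probe set to 0.84 at the sixth, and control 4 departs from the other controls most at the fourth to sixth.

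By a rule of likeness, the genes closest to Atp1b1 over the 7 arrays were Ostm1, Slc35f1 and Aldh5a1. The measure was the root mean square difference of log2 signals after each gene was centred on its own mean, and it was 0.0459, 0.0748 and 0.0887 for these genes. Ostm1 encodes the beta subunit of a lysosomal chloride transporter, Slc35f1 a member of a solute carrier family, and Aldh5a1 succinate semialdehyde dehydrogenase. Their log2 differences were 0.64, 0.67 and 0.60, in the same order. These genes were picked for likeness, so their differences give no further support.

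The bases before the listed starts of Atp1b1, with positive differences at all 7 probe sets, and of Atp2b4, with negative ones at 20 of 22, are shown because these genes lay to opposite sides. RefSeq's table for GRCm38.p6 gives the start of Atp1b1 on the minus strand, and the 250 bases upstream lie at chr1:164458356-164458605. Those of Atp2b4, also on the minus strand, lie at chr1:133753748-133753997. Both are written 5′ to 3′ on the strand of the gene. Capitals mark 2 motifs searched on either strand. One is the GC box GGGCGG. The other is TATATA, which resembles the TATA box.
Atp1b1: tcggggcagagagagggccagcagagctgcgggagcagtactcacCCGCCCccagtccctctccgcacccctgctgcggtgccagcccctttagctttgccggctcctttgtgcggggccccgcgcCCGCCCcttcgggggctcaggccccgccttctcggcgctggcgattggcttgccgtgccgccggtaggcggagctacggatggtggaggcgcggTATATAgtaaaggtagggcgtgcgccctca
Atp2b4: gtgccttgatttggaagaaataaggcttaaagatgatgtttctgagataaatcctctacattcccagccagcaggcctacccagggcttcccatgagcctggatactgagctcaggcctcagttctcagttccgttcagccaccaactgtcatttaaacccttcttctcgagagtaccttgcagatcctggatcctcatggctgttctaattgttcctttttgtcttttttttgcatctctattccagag

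The Atp1b1 stretch is 70.4% G and C with 24 CpG dinucleotides, and the Atp2b4 stretch 45.6% with 2, against medians of 52.4% and 6 over 32851 promoters. The TATATA run of Atp1b1 begins 30 bases before the start and its 2 GC boxes begin 124 and 205 bases before it, while the Atp2b4 stretch held neither motif. TATATA was found in 5.25% and GGGCGG in 32.7% of all promoters of this length. Neither stretch held CACGTG, an E-box core (6.02% of promoters), or TAATCC, a core bound by OTX factors (6.25%), on either strand. These are matches of letters, the table gives 1 start for each of these genes, and the arrays do not show which start was used. The Atp2b4 stretch holds near its end a run rich in t and c followed by cag, as the end of an intron does, and then ag before the listed start. It may therefore lie before an inner exon and not be a promoter, so its contrast with the Atp1b1 stretch may not be one between promoters.

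Atp1b2, on chromosome 11, encodes the beta 2 subunit, known from neural tissue as the adhesion molecule on glia. Its brightest probe set, 10387506, read 9.91, 9.50 and 9.66 in the Dicer1-deficient arrays, against 9.52, 9.99, 9.83 and 9.99 in the controls. The groups overlapped. The log2 difference was -0.14 (SE 0.16, 95% interval -0.50 to 0.22, limma adjusted p = 0.808), so that a rise as large as that of Atp1b1 lay outside its interval, a comparison of 2 separate intervals and no test of the difference between the genes.

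All 7 of the bright Atp1b2 probe sets had a negative difference, from -0.52 to -0.04. The most negative, 10387509, read 8.44, 8.16 and 8.14 in Dicer1-deficient arrays, against 8.69, 8.81, 8.73 and 8.85 in controls, with the groups apart. It did not pass (log2 difference -0.52, SE 0.13, limma adjusted p = 0.135). The dim probe set 10387508 ran the other way, at 5.20, 4.75 and 4.49 in Dicer1-deficient and 4.05, 4.57, 4.56 and 3.66 in control arrays, with overlap. No Atp1b2 probe set passed over all probe sets.

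Atp1a4, on chromosome 1, encodes the alpha 4 subunit, whose known place is the sperm tail. Most of its 21 probe sets were dim: 19 had a mean signal under 6.22, with no detection calls to tell them from background. Far the brightest was 10360255, which read 10.60, 10.24 and 10.72 in the Dicer1-deficient arrays, against 9.90, 10.10, 10.20 and 10.60 in the controls, with control 4 at the level of Dicer1-deficient array 1, so that the groups overlapped. The log2 difference was 0.32 (SE 0.19, 95% interval -0.11 to 0.75, limma adjusted p = 0.520). Without control 4 the groups were apart, as they were for 24.8% of all probe sets. The difference was then 0.45 and did not pass (limma adjusted p = 0.127). The neighbouring probe set by ID, 10360254, read 6.41, 6.50 and 6.55 in Dicer1-deficient and 5.85, 6.08, 6.07 and 5.97 in control arrays. These groups were apart, but the difference of 0.49 (SE 0.12) did not pass (adjusted p = 0.132). Of the 21 probe sets, 3 had the Dicer1-deficient arrays above all controls and 1 had them below, where 7.35% and 6.62% of all probe sets did. Without control 4 these counts were 5 and 1, where 11.7% and 13.1% of all probe sets did. The 1 below was the dim 10360265, with a difference of -0.49 (SE 0.16, limma adjusted p = 0.265).

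On the mean of its probe sets Atp1a4 had a log2 difference of 0.02 (SE 0.08). Of its 21 probe sets, 10 had positive and 11 negative differences, with a median of -0.01. With 19 of 21 probe sets dim, the bright ones do not show that the whole transcript was present. The sodium pump alpha subunits other than Atp1a4 were not analysed here.

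The plasma membrane calcium pump Atp2b1 (PMCA1), on chromosome 10, is the widely expressed member of its family. Its brightest probe set, 10366012, read 10.65, 10.67 and 10.76 in the Dicer1-deficient arrays, against 10.55, 10.57, 10.57 and 10.57 in the controls. The groups did not overlap, but the log2 difference was 0.13 (SE 0.09, 95% interval -0.07 to 0.33, limma adjusted p = 0.608). Together with Atp1b1 this made 2 of the 6 genes without overlap at the brightest probe set, where 16.3% of all genes had none and 9.27% had the Dicer1-deficient arrays above.

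Along its probe sets Atp2b1 showed no common direction. Of its 20 probe sets, 19 were above the median signal, 10 differences were positive and 10 negative, and their range was -0.45 to 0.23. Some 95% intervals were wide, as at 10366015 (-1.03 to 0.84). In 1 probe set, 10366022, all Dicer1-deficient arrays were below all controls (difference -0.23, SE 0.15), where 6.62% of all probe sets were. The mean of probe sets had a log2 difference of -0.03 (SE 0.08, 95% interval -0.21 to 0.15), the opposite sign to the brightest one. No probe set passed (lowest limma adjusted p = 0.531).

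Atp2b4 (PMCA4), on chromosome 1, is the other plasma membrane calcium pump measured, and it lay lower along most of the gene. At its brightest probe set, 10357837, the Dicer1-deficient arrays read 10.46, 10.37 and 10.43, against 10.71, 10.62, 10.63 and 10.32 in the controls. The Dicer1-deficient arrays were below controls 1 to 3 and above control 4. The log2 difference was -0.15 (SE 0.12, limma adjusted p = 0.692), and without control 4 it was -0.23 (adjusted p = 0.133).

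Of the 22 Atp2b4 probe sets, 20 had a negative difference, with a median of -0.31 against -0.00178 over all probe sets. In 9 of them all Dicer1-deficient arrays were below all controls, where 6.62% of all probe sets were. None of the 22 passed limma on its own, and the lowest adjusted p was 0.205. That was 10357840, which read 9.15, 9.01 and 8.70 in Dicer1-deficient arrays, against 9.60, 9.35, 9.54 and 10.03 in controls, a log2 difference of -0.68 (SE 0.19). At 10357836 the values were 10.05, 10.15 and 10.12 against 10.42, 10.50, 10.37 and 10.67, a difference of -0.38 (SE 0.12). Probe sets of a gene read the same RNA on the same arrays, so these counts are not independent.

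The 2 positive differences of Atp2b4 rested on control 4. At 10357835 the Dicer1-deficient arrays read 7.59, 8.00 and 7.75, against 8.18, 7.87, 7.98 and 5.67 in the controls, and at 10357850 they read 7.47, 6.70 and 7.89, against 7.72, 7.81, 7.98 and 5.78. Without control 4 these differences were -0.23 and -0.48, 21 of the 22 were negative, and 14 had the Dicer1-deficient arrays below the 3 remaining controls, where 13.1% of all probe sets had. Still none passed on its own (lowest limma adjusted p = 0.126).

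The mean over the 22 Atp2b4 probe sets was 8.35, 8.30 and 8.30 in the Dicer1-deficient arrays, against 8.72, 8.75, 8.61 and 8.27 in the controls. Controls 1 to 3 were all above the Dicer1-deficient arrays and control 4 was below them. With all arrays the log2 difference was -0.27 (SE 0.12, limma adjusted p = 0.287). Without control 4 it was -0.38 (SE 0.06, 95% interval -0.51 to -0.24) and passed with an adjusted p of 0.0046, in a fit where 17% of all genes passed, 10.3% as lower. The call on Atp2b4 thus depended on 1 control array, and leaving out any other array gave adjusted p of 0.457 to 0.554.

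**Figure D3:**
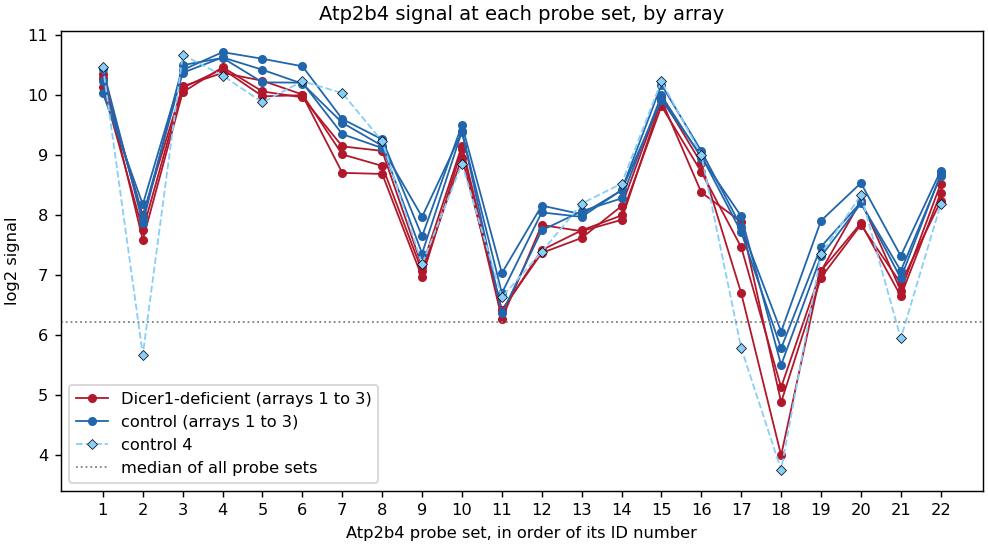
Log2 signal at each of the 22 Atp2b4 probe sets, numbered by ID, with Dicer1-deficient arrays in red, controls 1 to 3 in blue and control 4 as a dashed light blue line with diamonds. The red lines run below the blue ones at most probe sets, while control 4 crosses them, reading 5.67 at the second and 10.03 at the seventh.

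Atp2a3 (SERCA3), on chromosome 11, encodes a calcium pump of the endoplasmic reticulum known from blood cells, endothelium and some epithelia. It was dim: 17 of its 23 probe sets had a mean signal under 6.22, again with no detection calls. The brightest, 10378233, read 7.05, 7.85 and 6.96 in the Dicer1-deficient arrays, against 7.51, 7.33, 7.50 and 8.35 in the controls. The groups overlapped, with a log2 difference of -0.39 (SE 0.30, 95% interval -1.08 to 0.31, limma adjusted p = 0.691) that was -0.16 without control 4, the highest of the controls.

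One Atp2a3 probe set, 10378236, had the Dicer1-deficient arrays below the controls, at 6.27, 6.27 and 6.03 against 6.93, 6.41, 6.67 and 6.39. Its log2 difference of -0.41 (SE 0.17) did not pass (limma adjusted p = 0.410). Of the 23 differences, 11 were positive and 12 negative, and the mean of probe sets had a difference of -0.07 (SE 0.08, 95% interval -0.25 to 0.12).

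**Figure D4:**
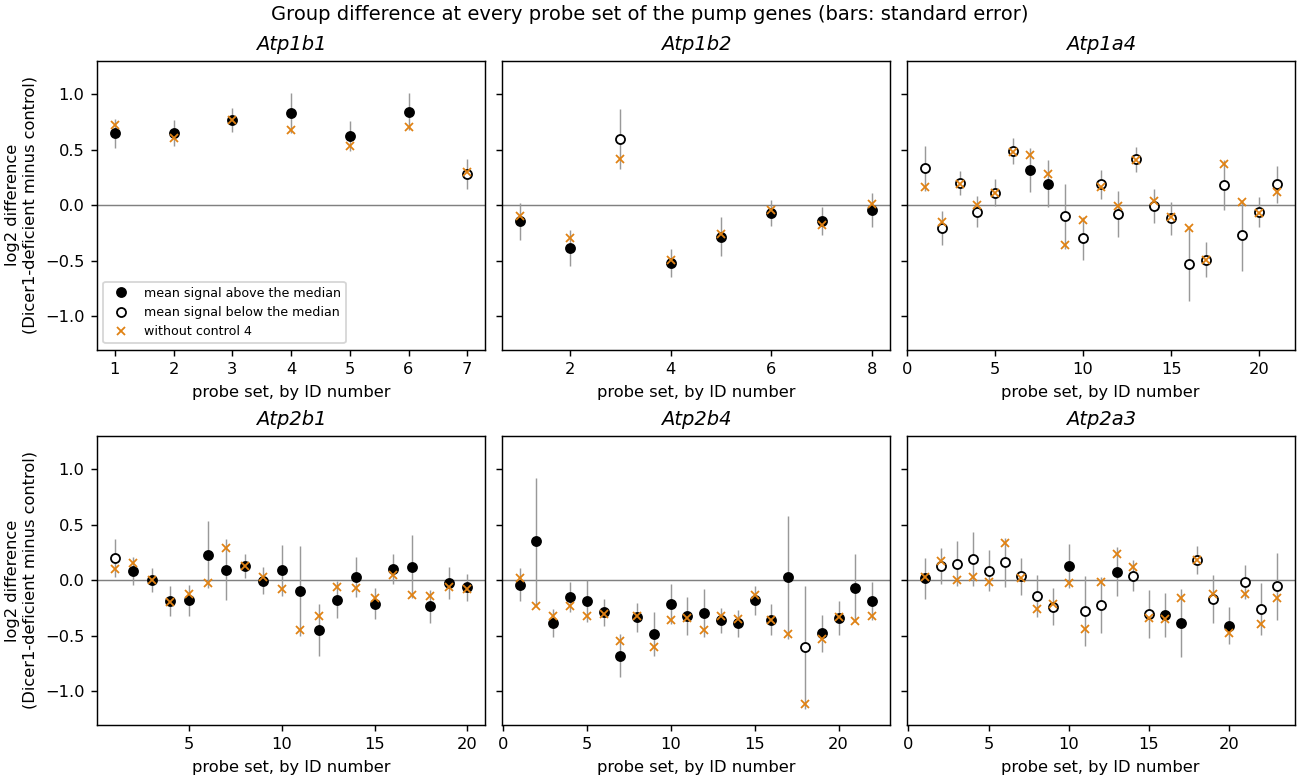
Log2 difference, Dicer1-deficient minus control, at each of the 101 probe sets of the 6 genes, by ID number, with standard errors from the fit. Filled points have a mean signal above the median of all probe sets and open points one below it, and orange crosses leave out control 4. All 7 Atp1b1 points are above 0, 20 of 22 Atp2b4 points are below 0, and those of Atp2b1 and Atp2a3 fall on both sides.

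Over the 101 probe sets together, 1 passed limma (0.990%), which is near the background of 1.06%, and 6 passed without control 4 (5.94%, where 2.3% of all probe sets did), all of Atp1b1. The groups did not overlap in 25 of them (24.8%), where 14% of all probe sets had no overlap, and most of these belonged to Atp1b1 and Atp2b4. The median difference of the 6 genes was -0.01 at the brightest probe sets, as over all genes (-0.01), with 3 positive and 3 negative. The pump subunits measured therefore had no common direction.

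Uneven change along a gene was tested in 2 ways. With limma's diffSplice, an F test over a gene's probe sets, none of the 6 passed among 4470 genes, of which 1.34% did, and among bright probe sets only, where 0.525% of genes passed, none did either. The lowest adjusted p was 0.129, for Atp1b2. Without control 4, where 6.29% of genes passed, Atp1a4 did so (adjusted p = 0.0057), but not when only bright probe sets were kept (adjusted p = 0.858). On simulated data, in which each probe set kept its own spread, diffSplice made too many false calls, so a second way was added after its calls were seen. When each probe set was set against the mean of its gene's others in the same array, 0 of the 101 passed limma (lowest adjusted p = 0.612), where 0.0377% of all probe sets did. diffSplice's test of single probe sets called 1 of the 101, where 0.239% of all probe sets were called. It was the dim Atp1b2 probe set 10387508 (adjusted p = 0.0257), which the second way did not call (difference from the others 0.83, SE 0.27, adjusted p = 0.737). The second way was tried only on simulated shifts larger than this, so its power at this size was not tested.

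Other genes of these pathways were read at the brightest probe set, from lists of which only part was measured. The sodium pump list had 5 of 30 members measured, and Atp1b1 was the only one to pass. Beside the pump subunits described above it held Sgk1, a kinase gene that promotes sodium transport, with a log2 difference of 0.12, and Nkain2, which encodes a protein that binds the beta 1 subunit, at 0.20. Of 12 measured genes of calcium pumps and calcium stores none passed by limma, and their median difference was -0.11. The smallest p among them was that of Jph1, a junction protein of muscle calcium stores, at 7.61 ± 0.28 in Dicer1-deficient and 8.04 ± 0.20 in control arrays (difference -0.44, adjusted p = 0.281, unadjusted p = 0.0318).

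Sodium exchangers and their partners gave 1 call among 6 measured, in the lower direction, where 0.917% of all genes passed as lower. Slc9a3r1, which encodes the scaffold NHERF1 of apical membranes, fell: it read 7.63, 7.61 and 7.63 in Dicer1-deficient arrays, against 8.45, 8.74, 8.47 and 8.50 in controls. Its log2 difference was -0.92 (SE 0.11, limma adjusted p = 0.0049). It encodes no exchanger, and the exchangers themselves, Slc8a3, Slc24a4, Slc9a2, Slc9a3 and Slc9a4, had differences of -0.69 to 0.09 and none passed.

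Of 7 measured genes on a list of RPE channels and carriers, which held sodium-coupled, chloride-coupled and proton-coupled carriers and potassium channels, 1 fell and none rose. It was Kcnj13, the gene of the apical potassium channel Kir7.1 that works beside the sodium pump. It read 10.22, 9.88 and 9.86 in Dicer1-deficient arrays, against 10.96, 11.15, 11.25 and 11.34 in controls (log2 difference -1.19, SE 0.14, limma adjusted p = 0.0051). Of all genes, 0.917% passed as lower. On the mean of probe sets 2 of the 7 fell, Kcnj13 and the carrier gene Slc1a4 (log2 difference -0.40, limma adjusted p = 0.0461), where 2.83% of all genes passed as lower. Atp1b1 and Kcnj13 thus passed in opposite directions. None of 3 measured genes of lipid flippases passed, which were the P-type ATPase genes Atp10b and Atp8b3 and the gene of an accessory subunit, Tmem30b. Atp10b had the smallest p of them, at -0.26 (limma adjusted p = 0.755). Of 5 measured genes of vacuolar proton pump subunits, 4 had positive differences at the brightest probe set. None passed limma, with Atp6v0a1 at 0.27 (adjusted p = 0.306, unadjusted p = 0.0375). Atp6v1g3, 1 of the 4, was dim, at 5.80 in Dicer1-deficient and 5.49 in control arrays, and its difference on the mean of probe sets was -0.06.

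Markers of other cells were read beside these results as the mean log2 signal of each list. None of 6 glial genes passed at the brightest probe set, and the list ran from 9.19 to 9.64 in Dicer1-deficient and from 8.97 to 9.40 in control arrays. On the mean of probe sets 2 of them rose, Gja1 by 0.39 and Sox9 by 0.33, where 3.03% of all genes passed as higher. The RPE also expresses both genes. The 5 photoreceptor genes ran from 6.09 to 6.76 against 5.41 to 6.35, and none passed limma (unadjusted p = 0.0327 for Rp1 and 0.0499 for Pde6g). The 6 neuronal genes ran from 6.69 to 6.98 against 6.53 to 6.78, with positive differences in 5 of 6. The exception, Tfap2a, fell, where 0.917% of all genes passed as lower. On the mean of probe sets Tfap2b rose by 0.81 as well, where 3.03% passed as higher. The list means of 3 melanocyte and Schwann cell genes were lower without overlap, at 8.33 to 8.47 in Dicer1-deficient and 8.83 to 9.26 in control arrays, although Cdh19 among them overlapped. So was the list mean of 11 fibroblast genes, at 10.89 to 11.12 against 11.24 to 11.33, although 2 of the 11, Foxc1 and Col3a1, had positive differences and others overlapped. At the brightest probe set 16.3% of all single genes had no overlap, and no such share was computed for list means. None of these melanocyte, Schwann cell and fibroblast genes passed singly at the brightest probe set. On the mean of probe sets Pax3 and Erbb3, genes of the melanocyte and Schwann lineages, and 3 fibroblast genes fell, where 2.83% of all genes passed as lower. The 7 RPE genes measured ran from 10.83 to 10.87 against 10.86 to 11.05, with 1 of 7 positive and a median difference of -0.37. At the brightest probe set Otx1 rose and Kcnj13 fell, where 1.42% of all genes passed as higher and 0.917% as lower. On the mean of probe sets 1 rose and 4 fell, namely Kcnj13, Sulf1, Rdh5 and Rdh10. Muscle and blood cell lists overlapped between the groups, with none of their 15 and 9 measured genes past the test. The part of these cell types in the differences of Atp1b1 and Atp2b4 was not tested.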

How the data were processed

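Messenger RNA of dissected mouse RPE was measured on 7 Affymetrix arrays, 3 Dicer1-deficient and 4 control. The log2 signals of 65535 probe sets came in 1 table deposited by the authors. The submitters' processing notes name RMA and Partek 6.6, with no role for either. The scale was read from the values (2.71 to 13.5). The sources used here do not give a genome build, a probe alignment or a filter. Quantile normalization, which is part of RMA, would remove differences in total RNA.

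Platform annotation gave 53644 probe sets 1 symbol, 877 several and 11014 none. Symbols were updated with RefSeq's mouse gene table, which left 13 unmatched. The genes lie almost all (4918 of 5017) on chromosomes 1, 10, 11, 12 and 13. Groups came from the labels, and replicate numbers are names in accession order. Groups were compared with limma 3.58.1 in R 4.3.3 (lmFit and eBayes, two-sided, Benjamini-Hochberg, threshold 0.05), per gene at the probe set with the highest mean, per probe set, and with diffSplice. These fits were first run on simulated data with known answers, in which each probe set kept its own spread. There diffSplice made more false calls than its threshold allows, so each probe set was also tested against the mean of its gene's others. Means over probe sets, other normalizations, filters, moderation, array weights and leaving out each array were alternatives. The genes named are the 6 members, the 3 genes most like a member that passed, and from each pathway list up to 4 genes past the threshold or else the 1 with the smallest p. A few others, named after their values were seen, are given beside their list's counts. Members and lists were chosen with earlier results of these data known. No detection calls were used.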

Additional observations from a re-analysis of the deposited data

Results flagged for a closer look

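Among the 25 sets of 4 control values examined (6 genes at the brightest probe set, 6 on the mean of probe sets and 13 single probe sets), 4 held 1 array far from the others by Dixon's ratio of gap to range. Chance flags about 1 in 20 independent sets, but these share the same 4 arrays, the Atp1b1 mean contains its probe sets, and the single probe sets were picked with their values known, so that rate is no yardstick here. The array was control 4 each time. On the mean of probe sets the ratio was 0.923 for Atp1b1, with control 4 at 9.65 and the other controls at 9.84 to 9.85, and 0.942 for Atp1a4, with control 4 at 4.76 and the others at 4.59 to 4.60. It was 0.845 at the Atp1b1 probe set 10359693 (9.66 against 10.21 to 10.32) and 0.876 at the Atp2b4 probe set 10357835 (5.67 against 7.87 to 8.18). Control 4 thus read low in 3 of these sets and high for Atp1a4.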

How the results depend on the processing

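The difference of Atp1b1 stayed positive in every alternative run, at 0.53 to 0.70 on the log2 scale, and lost its call at the brightest probe set when any array but control 4 was left out. The sign of Atp2b1 turned on the mean of its probe sets (-0.0260) and on their median (-0.0689). That mean gave -0.0595 with Dicer1-deficient array 1 left out, -0.0303 with array 2 and 0.0116 with array 3, and gave -0.00724, -0.0298, -0.0123 and -0.0549 with controls 1 to 4 left out in turn. Leaving out Dicer1-deficient array 3 turned Atp1a4 on the mean to -0.0183. None of these values passed the test. Genes past the threshold were 117, with 385 under array weights, 294 on the mean and 176 on the median of probe sets, 33 to 260 with each array left out and 121 to 853 on the mean with each left out (185 without control 1). Members past it were 1, from 0 to 1 with each array left out and from 1 to 2 on the mean with each left out. Probe sets past it were 570, with 1631 under array weights and 144 to 1236 with each array left out. For Atp1b1 the 1 probe set past it became 3 after quantile normalization, 2 after median centring, 3 among probe sets above the median signal, 6 with a variance trend, 6 with array weights and 0 to 6 with each array left out. By diffSplice 60 genes passed, 15 among probe sets above the median signal, 124 there without control 4, and 30 to 281 with each array left out. Atp1a4 passed diffSplice without control 4 (adjusted p = 0.0057). Probe sets set against their gene's others gave 20 calls, and 0 to 43 with each array left out. The cause was not tested. The mean with arrays left out, the comparison with a gene's others, and diffSplice on bright probe sets without control 4 were chosen after seeing the data. No paired analysis was possible because the labels give no replicate numbers. Dim probe sets, most of Atp1a4 and Atp2a3, limit what could be seen in those genes.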
